A study of Mus musculus with 24 samples.

Results

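The genes described here are 10 secreted inflammatory factors of the mouse, the interleukins Il1a, Il1b, Il6 and Il11, the cytokine Lif, the CXC chemokines Cxcl1, Cxcl2 and Cxcl5 and the CC chemokines Ccl2 and Ccl7. They make up 10 of the 52178 genes in the count table, and 9 of them passed the filter on low counts while Il6 did not. The genes were chosen by name as factors that tissues release on injury, with their values in hip caps under pressure already known. The hip cap comparisons of pressure therefore chose them, and those values are given as a description, with calls only counted beside those over all genes and with no p-value for a gene. The study asked how cartilage from an articular surface and cartilage from a growing bone respond to hydrostatic pressure.

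Hip caps, the cartilage of the femoral head, came from male mice of 4 weeks, of the strain C57/BL6 in the labels and C57/BL6J in the study's methods, and both hip caps of a mouse formed 1 sample of 2. Metatarsals came from embryos of the same strain at embryonic day 15, with 6 rudiments pooled per sample and the sex of the embryos not known. Both tissues were cultured as explants in media of their own for 24 h, kept as controls (0 MPa) or exposed for 1 h to 5 or 50 MPa, and cultured for another 24 h before RNA was taken. Each of the 6 groups held 4 libraries, named HC1 to HC4, H51 to H54 and H501 to H504 in hip caps and MC1 to MC4, M51 to M54 and M501 to M504 in metatarsals, in the order control, 5 MPa and 50 MPa. Tissue, age and medium changed together, so they cannot be told apart in any comparison of hip caps with metatarsals.

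Interleukin 1 alpha and interleukin 1 beta both signal through the receptor IL1R1, the former as an alarmin held in cells until they are damaged and the latter after cleavage by caspase 1. IL-6, IL-11 and LIF share the signalling chain gp130, encoded by Il6st, which activates STAT3. Cxcl1, Cxcl2 and Cxcl5 encode ligands of the neutrophil receptor CXCR2, and Ccl2 and Ccl7 encode ligands of the monocyte receptor CCR2. Many of these genes are classical targets of the transcription factor NF-kB, and in cartilage they are known for their release by chondrocytes treated with IL-1.

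Windows around the start site, from 250 bases before it to 50 bases after it, were taken from RefSeq on GRCm38.p6 and matched 7 of the 10 genes in 8 windows, with 2 for Il11 and none for Cxcl5, Ccl2 and Ccl7. The letters GGGNNNTTC, the core of the NF-kB site, were searched on both strands and occurred in the windows of Il6, Cxcl1 and Cxcl2, which is 3 of 8 windows, against 14.0% of all 32851 windows. The 150 bases before the start site of these 3 genes, all on the plus strand, are shown with every match to those letters in capitals, as the chemokine pair carries the clearest of them.
Il6 (chr5:30012964-30013113): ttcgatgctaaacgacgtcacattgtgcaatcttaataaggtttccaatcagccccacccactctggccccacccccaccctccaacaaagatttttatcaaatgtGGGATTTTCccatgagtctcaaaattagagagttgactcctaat
Cxcl1 (chr5:90891095-90891244): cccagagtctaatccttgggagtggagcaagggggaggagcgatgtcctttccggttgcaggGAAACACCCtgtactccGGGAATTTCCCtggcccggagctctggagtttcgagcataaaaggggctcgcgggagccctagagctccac
Cxcl2 (chr5:90903749-90903898): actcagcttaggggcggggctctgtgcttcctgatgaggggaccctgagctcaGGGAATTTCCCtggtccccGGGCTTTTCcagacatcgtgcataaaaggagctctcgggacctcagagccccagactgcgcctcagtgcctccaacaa
Cxcl1 and Cxcl2 lie close together on chromosome 5 and share the same 11 letters in capitals, GGGAATTTCCC, in which a match on the plus strand overlaps one on the minus strand. The plus-strand match began 71 bases before the start of Cxcl1 and 97 bases before that of Cxcl2. The AP-1 letters TGANTCA, which read as AP-1 on both strands, occurred in 4 of the 8 windows, those of Il1a, Il6, Lif and 1 of Il11, against 7.8% of all windows. The C/EBP letters TTGCNNAA were found in 1 of 8 windows, that of Il6, against 10.8%, and TATAAA in 2 of 8, those of Il1a and Il1b, against 13.6%. These matches describe the letters in the windows only.

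The 24 libraries held between 4185241 and 25104240 estimated counts. Levels are given as CPM, the usual measure of a gene's counts relative to the total of its library, scaled by TMM factors over the 24 libraries. Intervals of the fits are approximate standard errors. Each is the absolute log2 fold change divided by the square root of the F statistic of its quasi-likelihood test. The study left out HC4 and H502, and means, standard deviations and fits are over the other 22 libraries unless stated. The fits carried terms for sequencing run and library type. The runs, which were read from the colour strip of the study's clustering plot and are therefore uncertain, put HC1 to HC3 and all hip caps at 50 MPa in run 1 and HC4 and all hip caps at 5 MPa in run 2. Run 1 then held 9 libraries and run 2 held 15. These sizes do not match the library numbers in the study's methods for its high-output and mid-output sequencing kits, so the run of some libraries may be wrong, or run and kit may differ. Over the hip caps in the fit, run and 5 MPa thus cannot be told apart except through MC1 and M504, the metatarsal libraries of run 1. The fits took the hip caps at 50 MPa, HC3 and M504 as unstranded. The study's methods name strand-specific construction but also model strandedness as a possible batch effect. These library types may therefore be uncertain too. HC3 alone carried a weight of -0.76 in the fitted change at 50 MPa.

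HC4 and H502 matter for every hip cap comparison of these genes. HC4, a control, was above the 3 other controls for all 10 genes, above every hip cap at 5 MPa for 8 of them and above the 3 libraries used at 50 MPa for 6. H502 was below the 3 other libraries at 50 MPa for 5 genes. The shares of all genes that did so are not given here. Nothing particular to these genes is therefore read from these counts. The summed level of the 10 genes was 26.9, 36.3 and 29.4 CPM in HC1 to HC3 and 329 CPM in HC4. It was 125, 95.8, 127 and 76.7 CPM in the hip caps at 5 MPa, and 131, 59.2, 194 and 124 CPM at 50 MPa, where 59.2 CPM belonged to H502. In metatarsals it lay between 14.2 and 38.7 CPM at all pressures. Without HC4, the 3 controls lay below every hip cap under pressure and within the range of the metatarsals.

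**Figure D1:**
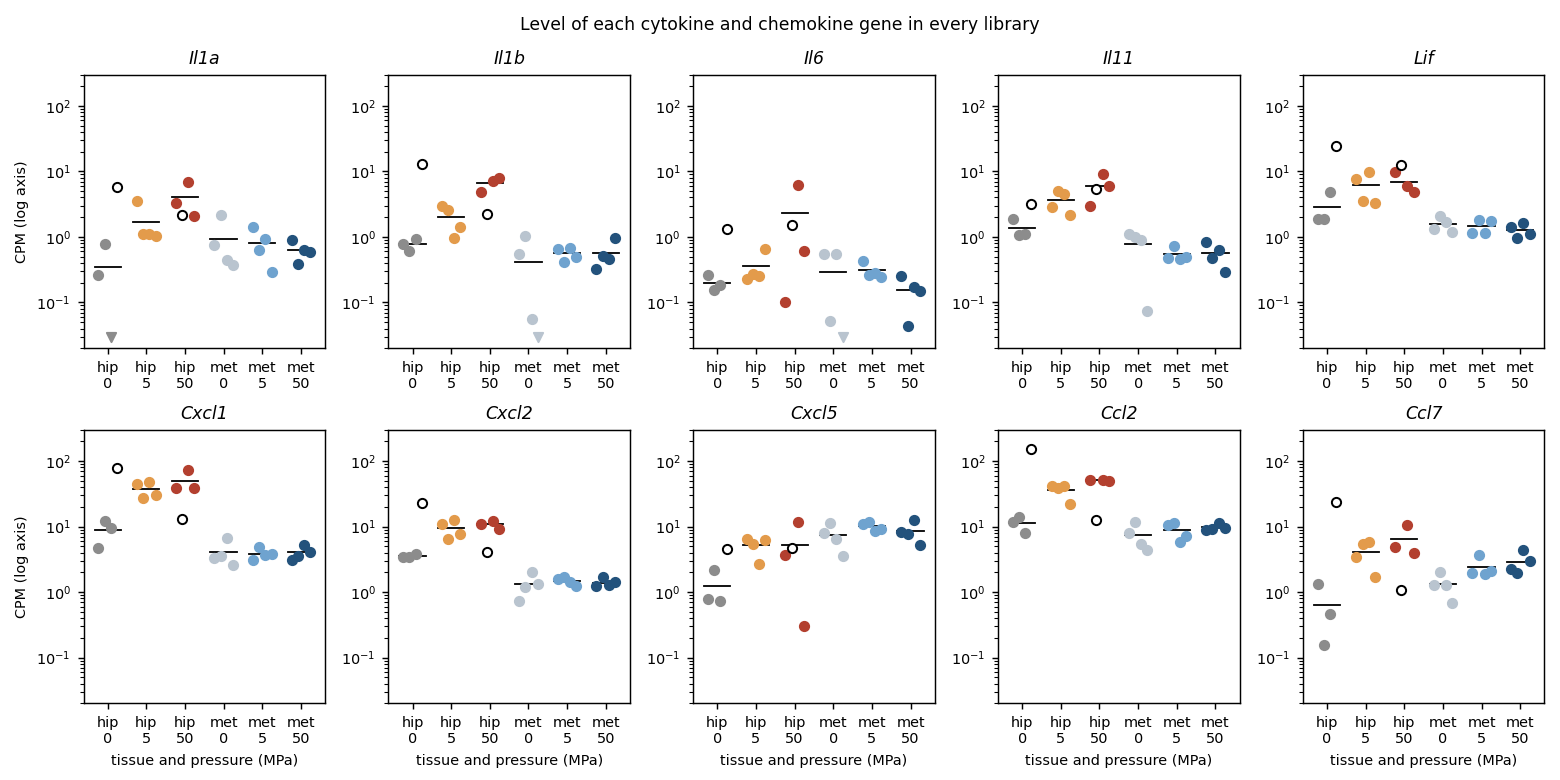
Level of each gene in every library, in CPM on a log axis, by tissue (hip, hip cap; met, metatarsal) and pressure in MPa. Filled points are the 22 libraries used, open points HC4 and H502, downward triangles at the bottom libraries with 0 counts, and black lines the means of the libraries used. HC4 stands above the other controls in all 10 panels, while the metatarsal points stay level across pressures for most genes.

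Both interleukin 1 genes were close to the limit of detection in the controls used. Il1a had 0.264, 0.773 and 0 CPM in HC1, HC2 and HC3, that is 1, 5 and 0 counts, where 0 counts in HC3 allow up to 0.277 CPM by counting error. It had 3.53, 1.09, 1.1 and 1.04 CPM at 5 MPa and 3.28, 7.0 and 2.10 CPM at 50 MPa in H501, H503 and H504, with 2.12 CPM in H502 and 5.81 CPM in HC4. Neither pressure overlapped with the 3 controls, and HC4 was above all of the pressed hip caps except H503. The fitted log2 fold change was 2.50 (standard error 1.36) at 5 MPa and 4.63 (standard error 1.31) at 50 MPa. The latter ran from 2.57 without HC3 to 9.06 without MC1, so its size is poorly fixed with counts this low. Il1a also shares 10.0% of its 31-base words with the predicted gene Gm14023, and reads of both genes cannot be told apart there. Il1b, whose transcript shared no such words, had 0.792, 0.618 and 0.925 CPM in HC1 to HC3 and 13.1 CPM in HC4. At 5 MPa it had 2.95, 2.59, 0.950 and 1.42 CPM, and at 50 MPa 4.81, 7.20 and 7.81 CPM, with 2.28 CPM in H502. The values at 50 MPa lay above all those at 5 MPa in the libraries used, and the fitted log2 fold changes from control were 2.11 (standard error 1.03) and 2.78 (standard error 0.88).

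Among the gp130 cytokines, Il6 was close to the limit of detection, while Il11 and Lif were counted in every library. Il6, the founding member of its family, had at most 10 counts in 21 of the 24 libraries, and the exceptions were 19 counts in HC4, 14 in H54 and 92 in H503. Its level of 6.19 CPM in H503 thus stood beside 0.102 and 0.601 CPM in H501 and H504, and its mean at 50 MPa of 2.30 ± 3.38 CPM (SD, n = 3) rests on 1 library. Il11, known for its role in fibrosis and bone turnover, had 1.85, 1.08 and 1.11 CPM in HC1 to HC3 and 3.14 CPM in HC4. It had 2.89, 5.05, 4.50 and 2.18 CPM at 5 MPa and 2.97, 9.22 and 6.01 CPM at 50 MPa, with 5.31 CPM in H502, so here HC4 was inside the range of the pressed hip caps and H502 was not low. The fitted log2 fold changes of Il11 were 1.43 (standard error 0.87) and 2.72 (standard error 0.73). The study also listed Il11 as higher at 50 MPa, with a much smaller log2 fold change, so its size is not settled. The reason for the difference was not tested. Lif, which blocks differentiation of several cell types, had 1.85, 1.85 and 4.81 CPM in HC1 to HC3 and 24.3 CPM in HC4. At 5 MPa it had 7.74, 3.55, 9.85 and 3.27 CPM and at 50 MPa 9.63, 6.06 and 4.81 CPM, with 12.3 CPM in H502. Lif overlapped with the 3 controls at both pressures through HC3, and its fitted log2 fold changes, 0.69 (standard error 0.63) and 0.74 (standard error 0.51), were the smallest of the 9 genes at both pressures.

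Of the neutrophil chemokines, Cxcl1 was the highest in hip caps per kb of transcript. It had 4.75, 12.2 and 9.34 CPM in HC1 to HC3 and 77.4 CPM in HC4. It had 44.9, 27.0, 47.2 and 30.4 CPM at 5 MPa and 38.8, 72.9 and 39.4 CPM at 50 MPa, with 13.1 CPM in H502. The lowest pressed hip cap in the fit had 27.0 CPM and the highest of the 3 controls 12.2 CPM, and H502 was close to that control. The fitted log2 fold changes were 1.89 (standard error 0.52) and 2.36 (standard error 0.51). Cxcl2, its neighbour with the same 11 promoter letters, had 3.43, 3.40 and 3.79 CPM in HC1 to HC3 and 22.8 CPM in HC4. It had 11, 6.42, 12.6 and 7.58 CPM at 5 MPa and 11, 12 and 9.31 CPM at 50 MPa, with 4.10 CPM in H502. The controls used differed little among themselves and no pressed library fell into their range, and the fitted log2 fold changes were 0.93 (standard error 0.44) and 1.36 (standard error 0.39). Cxcl2 shares 7.59% of its 31-base words with Cxcl3, so part of its count is uncertain. Cxcl5 had 0.792, 2.16 and 0.740 CPM in HC1 to HC3 and 4.51 CPM in HC4. It had 6.47, 5.39, 2.70 and 6.21 CPM at 5 MPa and 3.69, 11.7 and 0.300 CPM at 50 MPa, with 4.70 CPM in H502. The 4 libraries at 5 MPa lay above the 3 controls, and the fitted log2 difference was 1.90 (standard error 0.90). At 50 MPa its values spread from below the controls, with 1 count in H504, to the highest hip cap of all in H503, and the fitted log2 fold change of 2.92 (standard error 0.92) fell to 1.64 without H503.

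The monocyte chemokine Ccl2 was the highest of the 10 genes per length of transcript in every group. It had 11.6, 13.9 and 8.04 CPM in HC1 to HC3 and 153 CPM in HC4. It had 41.9, 38.9, 41.7 and 22.2 CPM at 5 MPa and 51.8, 51.5 and 49.3 CPM at 50 MPa, with 12.7 CPM in H502. The 3 libraries used at 50 MPa lay close together and above every library at 5 MPa, which in turn lay above the 3 controls. Fitted log2 fold changes of Ccl2 were 1.86 (standard error 0.43) at 5 MPa, 2.54 (standard error 0.44) at 50 MPa and 0.68 (standard error 0.46) between the pressures. Ccl7, encoded close to Ccl2 on chromosome 11, had 1.32, 0.155 and 0.462 CPM in HC1 to HC3, which is 5, 1 and 5 counts, and 23.6 CPM in HC4. It had 3.41, 5.46, 5.80 and 1.71 CPM at 5 MPa and 4.92, 10.4 and 3.91 CPM at 50 MPa, with 1.06 CPM in H502. Both pressures stood apart from the 3 controls, and the fitted log2 fold changes were 2.92 (standard error 0.87) and 3.66 (standard error 0.84).

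Counted over the genes, the values at 5 MPa lay above the 3 controls without overlap for 8 of the 10, where 8.39% of the 21283 genes tested did so. At 50 MPa 7 of the 10 lay above the controls, against 8.20% of all genes. With HC4 and H502 included, 0 of the 10 stood apart at 5 MPa, against 5.47% of all genes in either direction, and 0 at 50 MPa, against 2.52%. In the fits, all 9 genes had positive log2 fold changes at both pressures, with medians of 1.89 at 5 MPa and 2.72 at 50 MPa, where the medians of all genes were 0.01 and 0.02. At 50 MPa, edgeR's quasi-likelihood test called 6 of the 9 higher, namely Il1a, Il11, Cxcl1, Cxcl2, Ccl2 and Ccl7, against 3.51% of all genes called higher. DESeq2 called 8 of them and 2472 of all genes. At 5 MPa edgeR called 0 of the 9, against 0.00940% of all genes called higher, with 5 of the 9 and 15.6% of all genes at an unadjusted p-value under 0.05. DESeq2 called 3 of them and 591 of all genes. Between 50 and 5 MPa, edgeR called 0 of the 9 and 0% of all genes, with 0 of the 9 at an unadjusted p-value under 0.05 and 0 called by DESeq2. Since these comparisons chose the genes, nothing is read from the counts. The 6 calls at 50 MPa fell to 0 without HC3, with 4 at an unadjusted p-value under 0.05. Over all 24 libraries they also fell to 0, with 2 at an unadjusted p-value under 0.05 and a median log2 fold change of 0.66. Within the hip caps of run 1 alone, the 9 genes had positive values with a median of 2.21 and edgeR called 0 of them, with 8 at an unadjusted p-value under 0.05. Within run 2 HC4 is the only control, and against it 2 of the 10 genes, Il11 and Cxcl5, had positive log2 fold changes at 5 MPa, with a median of -1.74 over the 10. With 1 control this has no replicate check.

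**Figure D2:**
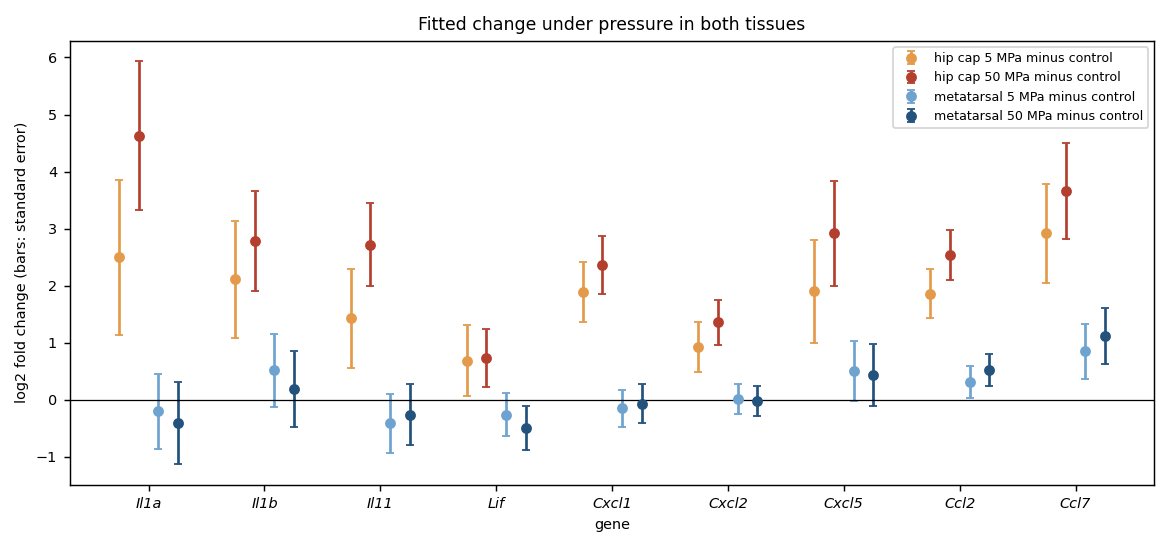
Fitted log2 fold change from control (points) with its standard error (bars) for the 9 genes that passed the filter, at 5 and 50 MPa in hip caps and metatarsals, over 22 libraries. Hip cap values lie between 0.69 and 4.63 and metatarsal values between -0.49 and 1.12.

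**Figure D3:**
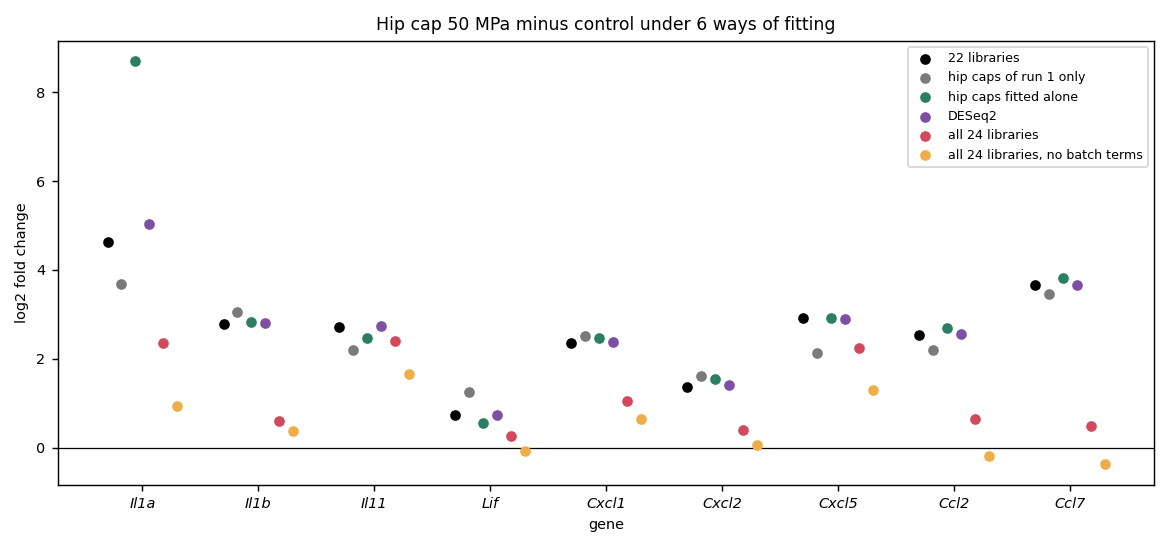
Log2 fold change of hip caps at 50 MPa from control for each gene under 6 ways of fitting, each point 1 fit. With the same batch terms, values over all 24 libraries, which include HC4 and H502, lie below those over 22 libraries for each of the 9 genes. They reach -0.37 for Ccl7 without batch terms.

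In metatarsals 0 of the genes passed the test. They were chosen on the hip cap comparisons rather than this one. Its fit still drew on hip cap controls through the batch terms, with a weight of -0.16 for HC3 at 50 MPa. The metatarsal comparison is therefore not fully independent of the choice. Ccl2 had 7.99, 11.7, 5.43 and 4.42 CPM in MC1 to MC4, 10.4, 11.3, 5.89 and 7.26 CPM at 5 MPa and 8.93, 9.21, 11.5 and 9.54 CPM at 50 MPa. Cxcl1 had 3.34, 3.58, 6.77 and 2.62 CPM in controls, 3.14, 4.83, 3.66 and 3.76 CPM at 5 MPa and 3.08, 3.59, 5.31 and 4.14 CPM at 50 MPa. The 3 ranges overlapped for both genes. Over the 10 genes, 0 stood apart from the controls at 5 MPa, against 2.88% of all genes in either direction, and 0 at 50 MPa, against 4.50%. The edgeR test called 0 of 9 at either pressure and between the pressures, where 0% of all genes were called in each, and DESeq2 also called 0. At an unadjusted p-value under 0.05 there were 0 of the 9 at 5 MPa, against 3.44% of all genes, 1 at 50 MPa, against 4.10%, and 0 between the pressures, against 0.869%. That 1 gene was Ccl7, with 1.32 ± 0.553 CPM in controls, 2.39 ± 0.823 CPM at 5 MPa and 2.88 ± 1.04 CPM at 50 MPa (SD, n = 4 each). Its log2 fold changes were 0.85 (standard error 0.48) and 1.12 (standard error 0.49), with an adjusted p of 1 in edgeR for both. Within run 2 alone they were 0.81 and 1.05. The median log2 fold change of the 9 genes was 0.01 at 5 MPa and -0.02 at 50 MPa. For Cxcl1 it was -0.15 (standard error 0.33) and -0.07 (standard error 0.34), and for Il1a, at 4 to 41 counts per control, -0.20 (standard error 0.66) and -0.41 (standard error 0.72). These standard errors set the size of change that could have been seen.

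The difference between the tissues in their change with pressure was fitted as an interaction, which shares the hip cap libraries that chose the genes. It was positive for all 9 genes at both pressures, with medians of 1.59 and 2.48. At 50 MPa the values ran from 1.23 (standard error 0.60) for Lif to 5.03 (standard error 1.36) for Il1a, with 2.44 (standard error 0.54) for Cxcl1 and 2.02 (standard error 0.45) for Ccl2. The edgeR test called 0 of 9 at 5 MPa, against 0.0188% of all genes, and 0 of 9 at 50 MPa, against 0.442%. At an unadjusted p-value under 0.05 there were 3 and 8 of the 9, against 11.9% and 19.0% of all genes. DESeq2 called 0 and 5 of the 9, and 146 and 1397 of all genes. Nothing is read from these counts either.

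Between the controls of the 2 tissues, which are free of pressure, 2 of the 9 genes passed the threshold in opposite directions. HC1 to HC3 also served in the comparisons that chose the genes. This contrast is therefore not independent of the choice. Cxcl2 was higher in hip caps, with 3.54 ± 0.217 CPM (SD, n = 3) against 1.34 ± 0.543 CPM (n = 4), so its log2 fold change was 1.73, with a standard error of 0.41 and an adjusted p of 0.00280 in edgeR. Cxcl5 was lower, with 1.23 ± 0.807 CPM against 7.33 ± 3.22 CPM, so its log2 fold change was -2.35, with a standard error of 0.79 and an adjusted p of 0.032 in edgeR. Neither gene overlapped between the tissues over the libraries used. The 1 gene called higher and the 1 called lower compare with 14.6% and 16.4% of all genes, so neither share stands out from the background. The other 7 genes did not pass, from -1.64 (standard error 1.27) for Il1a to 1.24 (standard error 0.48; edgeR adjusted p 0.0569) for Cxcl1, and the median of the 9 was 0.50, against -0.08 for all genes. With library sizes alone that background moved to -0.96, and the values of Il1b and Ccl2 turned negative, at -0.55 and -0.39. Both calls were lost without MC1, and that of Cxcl5 also without HC1, HC3 or M504. With HC4 and H502 included, 7 of the 9 were called, each higher in hip caps, beside 5626 of all genes called in either direction. Cxcl5 at -1.49 no longer was.

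Averaged over the 3 pressures, 6 of the 9 were called higher in hip caps, namely Il1b, Il11, Lif, Cxcl1, Cxcl2 and Ccl2, against 21.0% of all genes called higher. This average holds the pressed hip caps that chose the genes and is not independent of the choice. Cxcl1 had a log2 fold change of 2.73 (standard error 0.33), Cxcl2 of 2.50 (standard error 0.25) and Ccl2 of 1.69 (standard error 0.25). Cxcl5 again went the other way at -1.07 (standard error 0.44) and did not pass, and Ccl7 was at 0.24 (standard error 0.44). At 5 MPa 6 of the 10 genes lay above the metatarsals at 5 MPa without overlap, against 19.2% of all genes, and Cxcl5 lay below them. At 50 MPa 7 of the 10 lay above the metatarsals at 50 MPa, against 18.4%. Without M504 the 6 calls of the average fell to 3.

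Levels of the 10 genes were compared with each other per kb of transcript, with exon lengths between 0.80 kb for Ccl7 and 4.35 kb for Lif. On this scale Ccl2 made up a mean of 49.6%, 45.5% and 46.8% of the summed level in hip caps at 0, 5 and 50 MPa, and 39.4%, 37.3% and 41.7% in metatarsals. Cxcl1 came second in hip caps, with 23.6%, 28.9% and 26.7%, and took 14.2%, 10.3% and 10.3% in metatarsals. By group means Cxcl5 was second in metatarsals, with 23.4%, 27.1% and 21.7%, against 3.20%, 4.34% and 2.50% in hip caps. The lowest share of Cxcl5 in any metatarsal library, 14.8%, was above the highest in any hip cap used, 6.92%. The share of Ccl7 in metatarsals was 9.87%, 14.6% and 16.9%, with library ranges of 9.18% to 10.6% in controls and 11.4% to 17.6% at 5 MPa. Ccl2 and Cxcl1 together thus held most of the signal in hip caps at every pressure, and HC4 had 57.0% and 17.5% of its own sum in them. Il1a, Il1b, Il6, Il11 and Lif each had a mean share of at most 3.61% in the 6 groups.

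**Figure D4:**
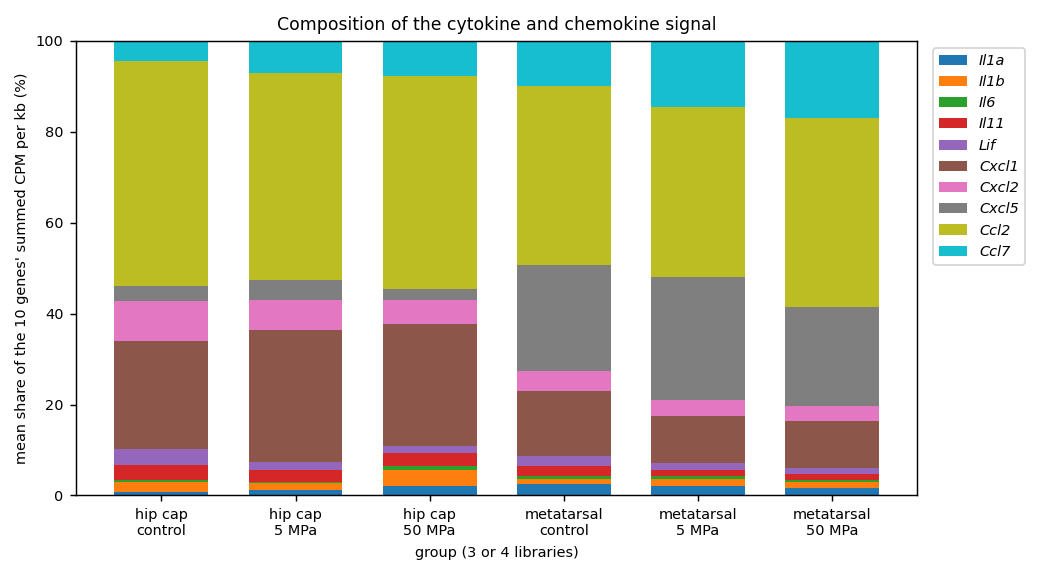
Mean share of each gene in the summed CPM per kb of the 10 genes, in %, by group (stacked bars, 3 libraries in hip cap controls and at 50 MPa and 4 elsewhere). Ccl2 is the widest band in all 6 bars, followed by Cxcl1 in hip caps and by Cxcl5 in metatarsals.

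The receptors and responders of these factors were described by lists. In a list of 19 receptors and decoys, 16 could be tested, and 2 were called higher at 50 MPa in hip caps and 0 lower, where 3.51% of all genes were called higher, and the median log2 fold change was 0.64, against 0.02 for all genes. Those 2 were Ccr1, a receptor of CC chemokines, at 2.78 (standard error 0.73) and Il1rl1, the receptor of IL-33, at 2.63 (standard error 0.65). Il6st had 181 ± 25.2 CPM in controls and 209 ± 4.99 CPM at 50 MPa (SD, n = 3 each), which the fit put at 0.12 on the log2 scale (standard error 0.17). Between the controls of the tissues 2 of the 16 were called higher and 3 lower, where 14.6% and 16.4% of all genes were, so the list did not stand apart by these counts. Lifr, the chain that binds LIF, had 158 ± 37.2 CPM in 3 hip cap controls and 45.3 ± 8.35 CPM in 4 metatarsal controls (SD), or 1.79 on the log2 scale (edgeR adjusted p 5.16e-04), and Il6ra was at 1.58. Il1r1 was lower in hip caps at -1.65 and Il11ra1, the receptor of IL-11, at -1.25.

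In 28 NF-kB targets and feedback genes, all of them tested, 3 were called higher in hip caps at 50 MPa and 0 lower, and 22 had positive values with a median of 0.47. Here and for the lists below, the share of all genes called higher at this pressure was 3.51%. The 3 were Ier3, an early survival gene, at 1.53 (standard error 0.42), Rel, an NF-kB subunit, at 1.23 (standard error 0.31), and Sod2, the mitochondrial superoxide dismutase, at 0.95 (standard error 0.21). Ptgs2, which encodes the cyclooxygenase of inflammation, had 38.7 ± 4.56 CPM in hip cap controls and 97.8 ± 37.3 CPM at 50 MPa (SD, n = 3 each), a log2 fold change of 1.19 (standard error 0.48) that did not pass. Of 14 STAT3 targets and feedback genes 0 were called higher and 1 lower, which was Myc at -1.08 (standard error 0.28). The share of all genes called lower is not given here, so nothing is read from this count. Stat3 itself was at 0.01 (standard error 0.21). Among 39 other cytokines and chemokines 28 could be tested, and 1 was called higher, the CC chemokine Ccl3 at 3.29 (standard error 0.72), with 0.871 ± 1.12 CPM in controls and 5.84 ± 1.80 CPM at 50 MPa (SD, n = 3 each). That 1 of 28 is near the share of all genes. In edgeR, 0 of 14 tested genes of IL-1 processing and sensing and 0 of 13 immediate early genes, such as Jun and Egr1, were called in hip caps at 50 MPa, with medians of 0.40 and 0.41. At 5 MPa in hip caps and at both pressures in metatarsals, edgeR called 0 genes of the 6 lists. Over all 24 libraries it called 2 of all genes at 50 MPa in hip caps, so the calls of the lists at this pressure rest on leaving out HC4 and H502.

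Among the other cytokines and chemokines, 4 of the 28 tested were called higher in the controls of hip caps than in those of metatarsals, and 9 lower, where 14.6% and 16.4% of all genes were. Cxcl9 and Cxcl10, targets of interferon gamma that attract T cells, were lower in hip cap controls, at -5.63 (standard error 0.66; edgeR adjusted p 2.82e-06) and -6.70 (standard error 1.01; edgeR adjusted p 3.30e-05) on the log2 scale. Cxcl9 had 0.423 ± 0.130 CPM (n = 3) against 15.0 ± 7.26 CPM (n = 4), and Cxcl10 had 0.103 ± 0.178 CPM against 10.1 ± 5.32 CPM (SD).

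Cell markers were summed as CPM per library. The 15 chondrocyte markers, Col2a1 and Acan among them, summed to between 32090 and 88450 CPM in the hip caps used and between 2198 and 5821 CPM in metatarsals, and 10 skeletal muscle markers summed to at least 423.5 CPM in metatarsals and at most 41.3 CPM in those hip caps. HC4 had 15040 CPM and H502 18070 CPM of the chondrocyte markers, below every other hip cap. The chondrocyte sum had medians of 78880, 54560 and 39950 CPM in hip caps at 0, 5 and 50 MPa. At 5 MPa it overlapped with the controls, as HC2 with 55830 CPM lay below 2 of the 4 libraries, and at 50 MPa it did not overlap in the libraries used. Col2a1 made up most of it, and Prg4 and Chad, named after their values were seen, had higher means at 5 MPa than in controls, with 7436 against 3247 CPM and 1660 against 1435 CPM. The 14 macrophage markers summed to between 118 and 336 CPM in HC1 to HC3, 130 and 755 CPM at 5 MPa and 178 and 335 CPM at 50 MPa, and to 827 CPM in HC4. The 8 osteoclast markers summed to between 320 and 516 CPM in HC1 to HC3, 530 and 1657 CPM at 5 MPa and 536 and 1676 CPM at 50 MPa, and to 4635 CPM in HC4, so that HC4 was the highest hip cap in both lists. In metatarsals the macrophage sum was 78.8 to 142 CPM and the osteoclast sum 36.4 to 77.3 CPM. Neutrophil markers had sums from 7.21 to 204 CPM in hip caps, the latter in H53, and up to 6.77 CPM in metatarsals. Ly6g, which defines mouse neutrophils, was at 0 in the 10 hip caps used, but others of this list were detected there. Mean S100a8 was 3.24 CPM in hip cap controls, 14.7 CPM at 5 MPa and 3.57 CPM at 50 MPa. For S100a9 the means were 5.83, 16.8 and 2.6 CPM. Macrophages and osteoclasts can express the same cytokine genes, and their part in the levels was not tested. In bulk tissue, fewer cells of a type and less RNA per cell cannot be told apart.

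**Figure D5:**
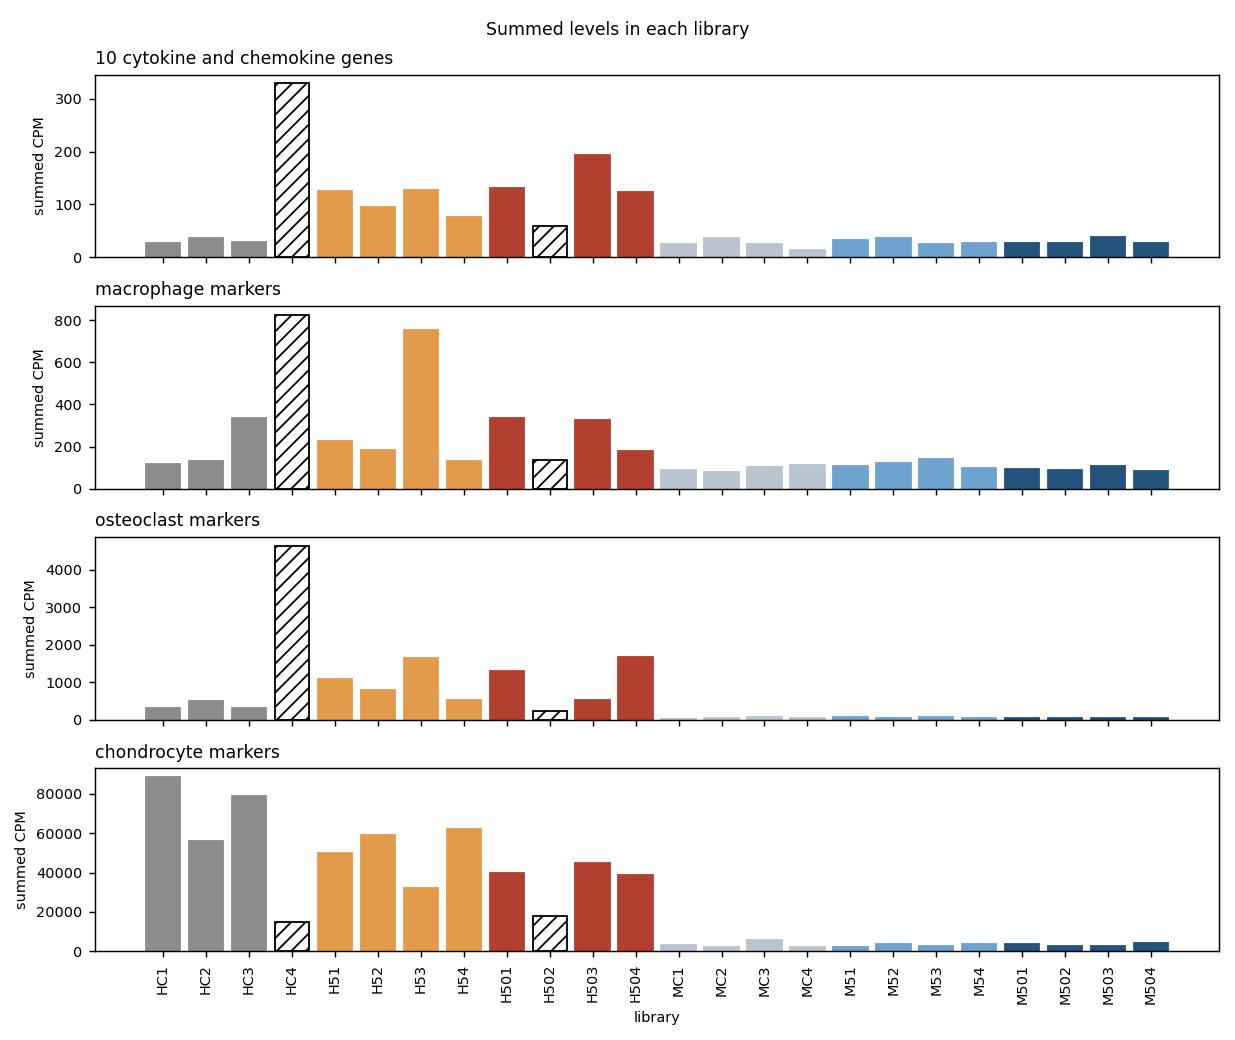
Summed CPM of the 10 cytokine and chemokine genes and of the macrophage, osteoclast and chondrocyte markers in each of the 24 libraries, on linear axes (bars coloured by group as in the plot of levels, hatched bars for HC4 and H502). HC4 has the highest sum in the first 3 panels and, among hip caps, the lowest of chondrocyte markers.

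Across the 10 hip caps used, the 45 pairs of the 10 genes had Pearson correlations of log2 CPM between 0.07 and 0.94, with a median of 0.69. Across the 12 metatarsals they ran from -0.29 to 0.80 with a median of 0.33. The libraries share pressure groups and runs and some genes had few counts, so these values are descriptions. Pairs with Cxcl5 were mixed. Cxcl5 with Ccl2 had 0.74 in metatarsals and 0.45 in hip caps, against the order of the medians. Cxcl5 with Cxcl2 had -0.05 in metatarsals and 0.48 in hip caps, which follows that order. By the same measure over the 22 libraries, the genes whose pattern was most like that of a member were, among 13918 candidates, Fth1 (r = 0.98) and Slc48a1 (0.97) for Cxcl2, and Prdx6 and Sod2 (0.97 each) for Cxcl1. Ccl2 was most like Gja1 and Sod2 (0.93 each), Lif like Abcc1 and Zc3h12a (0.94 each), and Il11 like Tm4sf1 (0.92) and Cd14 (0.91). Il1b was most like Tm4sf1 and Errfi1 (0.86 each). The closest genes of Ccl7 were Il13ra1 (0.81) and Plin2 (0.79), and those of Il1a were Ctsc (0.79) and Nrd1 (0.78).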

How the data were processed

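The authors sequenced rRNA-depleted RNA, trimmed reads with Trim Galore 0.6.5, quantified transcripts with kallisto and imported them per gene with tximport, so the deposited values are estimated counts of 52178 genes without normalization; the submitters' processing notes name GRCm39. Estimated counts were rounded, and 48845 genes were named from GENCODE M21 on GRCm38, which served for symbols, exon lengths and shared words only. The deposited table held 0 columns of other samples. Totals of 4185241 to 25104240 per library set the precision, a count of 0 was taken to allow 3 counts, and such limits cover counting error only. The study reports low RNA integrity values and proposes partial degradation of the RNA, which these limits do not cover. Each hip cap sample came from 1 mouse, while whether metatarsal pools shared a litter is not given in the sources used here, so p-values there measure only the spread between pools.

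Genes passing edgeR's filterByExpr (21283) were fitted by the robust quasi-likelihood method of edgeR 4.0.16 in R 4.3.3, with its bias-adjusted deviances, TMM factors and terms for group, run and library type, over the 22 libraries of the study. Tests were two-sided with Benjamini-Hochberg adjustment over all genes and a threshold of 0.05. Log2 CPM used a prior count of 2. DESeq2 1.42.0, RLE factors, library sizes alone, no filter, all 24 libraries, other batch terms, a replicate block, fits within a tissue or run and leaving out each library were the alternatives. The fit was tested on simulated data. Members and lists were chosen with earlier results of these data known. Besides the members, the genes named are, per list, the 2 of highest mean CPM and up to 4 with the largest change past the threshold in a comparison, and the 2 most correlated with each member among named genes with a mean of at least 1 CPM, which for Cxcl5 are not reported here. The study gives the pressure in MPa and the labels in mPa, and MPa was used. Proteins of the members were not analysed here.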

Additional observations from a re-analysis of the deposited data

Results flagged for a closer look

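A library far from the other 3 of its group was found in 14 of the 60 combinations of gene and group. Chance gives about 1 in 20 only for independent values with a normal spread. These were linear CPM of correlated genes, some with few counts, so that rate is no yardstick here. In 8 of the 14 the library was HC4, the control that the study left out, which was the highest control for Il1a (5.81 CPM), Il1b (13.1 CPM), Il6 (1.30 CPM), Lif (24.3 CPM), Cxcl1 (77.4 CPM), Cxcl2 (22.8 CPM), Ccl2 (153 CPM) and Ccl7 (23.6 CPM). Its summed macrophage and osteoclast markers were also the highest of the hip caps, while single markers such as Fcgr1, Aif1 and Calcr were at 0 CPM. The part of these cell types in the levels was not tested. H502, the other library left out, was the lowest at 50 MPa for Ccl2 (12.7 CPM). Among libraries that the study kept, H51 was the highest at 5 MPa for Il1a (3.53 CPM), H54 was the highest for Il6 (0.663 CPM) and the lowest for Ccl2 (22.2 CPM), and M52 was the highest metatarsal at 5 MPa for Il11 (0.735 CPM) and Ccl7 (3.62 CPM). HC4 was the highest of the 12 hip caps for 6 genes and H503 for the 4 others, Il1a, Il6, Il11 and Cxcl5. How often these libraries were the highest over all genes is not given here.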

How the results depend on the processing

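Of 9 genes, the number past the threshold in the hip cap comparison at 50 MPa (6) fell to 1 with library sizes alone and to 0 over all 24 libraries (2 at an unadjusted p-value under 0.05), with each tissue fitted alone (7), within run 1 (8) and over all 24 libraries without batch terms (2), an alternative chosen after seeing the data in which Ccl2 (-0.19) and Ccl7 (-0.37) changed sign. At 5 MPa the number (0) rose to 1 with library sizes alone, 5 without batch terms, 4 with library type only, 3 with the replicate block, 1 with hip caps fitted alone and 3 in DESeq2, all higher. Against HC4 as the lone control in run 2, also chosen after seeing the data, it was 5, all lower, a count with no replicate of the control behind it. Between the pressures it rose from 0 to 1 without batch terms, where all genes called rose from 0 to 1039. For the interaction at 50 MPa it rose from 0 to 2 with RLE factors, 1 without batch terms, 1 with library type only, 2 with the replicate block and 5 in DESeq2. All genes called there went from 94 to 115, 9, 38, 247 and 1397 in that order. Between the controls of the tissues it moved from 2 to 1 with library sizes alone, 1 without the filter and 7 over all 24 libraries, all higher in hip caps, or 7 over all 24 without batch terms, of which 6 were higher. All genes called between these controls went from 6599 to 9024, 5349, 5626 and 6765 in that order. Leaving out 1 library at a time gave 0 to 7 genes at 50 MPa (0 without HC3), 0 to 2 at 5 MPa (2 without HC2), 0 to 4 for the interaction at 50 MPa (4 without HC2 or H504), 0 to 1 at 5 MPa, 0 to 3 between controls (0 without MC1) and 3 to 7 for the average of the tissues (3 without M504). Calls over all genes also moved between settings, so nothing particular to these genes is read from such numbers. The causes were not tested. In metatarsals the number stayed 0 in every alternative run. Of 2979 values of single genes, 2 changed sign from a called value and 213 moved by more than the spread between libraries. Libraries sharing a replicate number had residuals that correlated between -0.18 and 0.29 in 20 pairs, 5 of them over 0.1. The main fit used no pairing, and these values cannot show whether such libraries shared a litter or a day. With the replicate block all genes called in hip caps at 5 MPa rose from 5 to 218. Library sizes alone moved the median of all genes from 0.02 to 0.25 at 50 MPa and from -0.08 to -0.96 between controls. Low counts limit the precision of Il1a, Il1b, Il6 and Ccl7.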
